A study of Mus musculus with 18 samples.

Results

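Cytochrome c oxidase, complex IV of the mitochondrial respiratory chain, has several nuclear-encoded subunits that exist as a tissue-restricted and a general isoform. The 8 genes of 4 such pairs were followed in prostate RNA sequencing of mice with mutations in Elac2: Cox6a2 and Cox6a1, Cox7a1 and Cox7a2, Cox8b and Cox8a, and Cox4i2 and Cox4i1, with the restricted isoform named first. They were taken by gene symbol from tables of 55469 genes, and each of the 8 symbols had a row in all 4 tables. The muscle-type isoforms Cox6a2, Cox7a1 and Cox8b reached levels comparable to their general partners at 10 weeks, were lower in KO at that age together with all 31 skeletal muscle genes listed, and were low in every group at 30 weeks. In A537T at 10 weeks they had lower means, also with the muscle genes, but Cox7a1, Cox8b and all 3 muscle pair ratios overlapped WT. No member passed the adjusted threshold in any of the 4 comparisons.

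Elac2 encodes the RNase Z that removes the 3′ trailers of nuclear and mitochondrial tRNA precursors. Males of the label strain C56NL/6N were studied at 10 and 30 weeks, with 3 libraries from separate mice in each of 6 groups, and RNA was taken from the ventral and lateral lobes. WT mice were labelled ELAC2+/+, KO mice (ELAC2-/-) were homozygous for an allele from which Cre under the probasin promoter removes exon 8 in prostate epithelium, and A537T mice (ELAC2A537T) carried in all cells a homozygous Ala537Thr substitution made by CRISPR-Cas9. No label names the TRAMP transgene that the study used in other mice. The Cre acts in epithelium only, so stroma, vessels and any adjoining muscle of KO mice keep the gene. The WT libraries of an age serve both mutant lines, so the 2 comparisons at an age are not independent.

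Complex IV passes electrons from cytochrome c to oxygen and pumps protons. Its catalytic core, with mt-Co1, mt-Co2 and mt-Co3, is encoded by mitochondrial DNA, and the nuclear subunits surround it and tune its activity and assembly. Cox6a2, Cox7a1 and Cox8b are the heart and skeletal muscle forms in mice, and Cox7a1 and Cox8b are also known from brown adipocytes, while Cox6a1, Cox7a2 and Cox8a are made in nearly all tissues. Cox4i2 is the isoform of subunit 4 known from lung and from pericytes, where it serves oxygen sensing, and Cox4i1 is the general form.

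In GRCm38 (GENCODE M21) the muscle forms lie on chromosome 7, Cox6a2 at chr7:128205435-128206387, Cox7a1 at chr7:30184144-30186078 and Cox8b at chr7:140898945-140900446. Their partners lie elsewhere, Cox6a1 at chr5:115345642-115348981, Cox7a2 at chr9:79755361-79759878 and Cox8a at chr19:7215153-7217616. Cox4i2 is at chr2:152754173-152765037 and Cox4i1 at chr8:120668222-120674207. Cox4i1 shares part of its span with Gm20388 on the same strand, so reads could be split between them and its values are less certain. Cox6a2 overlaps Itgad on the other strand, which the strand-aware counting separates.

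The upstream sequences of both partners are shown for the pairs where RefSeq (GRCm38.p6) gives both, since members of the 2 kinds differed in how they varied among libraries. Each run holds the 200 bases from 250 to 51 before the transcript start, read 5′ to 3′ on the gene's strand, and capitals mark CG dinucleotides. The positions are chr7:30183921-30184120 on the plus strand for Cox7a1, and, on the minus strand, chr9:79759904-79760103 for Cox7a2, chr7:140900497-140900696 for Cox8b and chr19:7217667-7217866 for Cox8a.
Cox7a1: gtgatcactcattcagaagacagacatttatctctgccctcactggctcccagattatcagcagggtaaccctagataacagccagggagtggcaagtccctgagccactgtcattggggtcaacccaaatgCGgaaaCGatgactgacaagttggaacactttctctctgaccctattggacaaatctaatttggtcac
Cox7a2: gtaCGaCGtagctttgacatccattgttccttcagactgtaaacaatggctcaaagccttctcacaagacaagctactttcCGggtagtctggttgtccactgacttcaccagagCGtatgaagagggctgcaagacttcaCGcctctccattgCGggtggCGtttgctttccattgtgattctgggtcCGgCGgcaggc
Cox8b: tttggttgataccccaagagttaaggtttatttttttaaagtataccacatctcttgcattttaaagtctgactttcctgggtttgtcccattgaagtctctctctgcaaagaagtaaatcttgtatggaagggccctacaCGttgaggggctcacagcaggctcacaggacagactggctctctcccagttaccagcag
Cox8a: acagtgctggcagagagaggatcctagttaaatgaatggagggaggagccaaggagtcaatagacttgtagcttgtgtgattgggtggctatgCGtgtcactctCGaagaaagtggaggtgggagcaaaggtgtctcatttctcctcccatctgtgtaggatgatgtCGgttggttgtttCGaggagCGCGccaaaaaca
The muscle forms held few CG dinucleotides, 2 for Cox7a1 and 1 for Cox8b. Their partners held 9 for Cox7a2 and 6 for Cox8a, and Cox6a1, not printed, held 18. Among 32851 windows of the same length in the RefSeq table, the median was 4, 36.4% held 2 or fewer and 42.2% held 6 or more. An E-box (CANNTG, which reads the same on both strands) was found once in Cox7a1 and once in Cox8a, as in 59% of all windows, and no window of these 5 genes held a MEF2 motif on either strand, which 2.42% of all windows hold.

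Levels were compared between genes as CPM per kb, the normalised count scaled to the total of its library and divided by transcript length. In WT at 10 weeks Cox4i1 was highest at 265 ± 27.6 (SD, n = 3), followed by Cox8a at 120 ± 12.7. The next 5 did not differ beyond their spread, with Cox7a1 at 89.8 ± 56.5, Cox6a2 at 78.6 ± 43.2, Cox8b at 76.1 ± 40.4, Cox6a1 at 73.2 ± 19.4 and Cox7a2 at 69.1 ± 13.3 CPM per kb. Cox4i2 was far lower at 0.37 ± 0.188. In WT at 30 weeks the general isoforms kept their order, at 272 ± 13.5 for Cox4i1, 136 ± 16 for Cox8a, 80.6 ± 8.7 for Cox6a1 and 53 ± 4.72 for Cox7a2. The muscle forms were then at 2.76 ± 0.97 for Cox7a1, 1.77 ± 0.883 for Cox8b and 0.488 ± 0.846 CPM per kb for Cox6a2, and Cox4i2 was at 0.271 ± 0.255. The ages were normalised in separate tables, so levels set side by side across them carry no test.

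**Figure D1:**
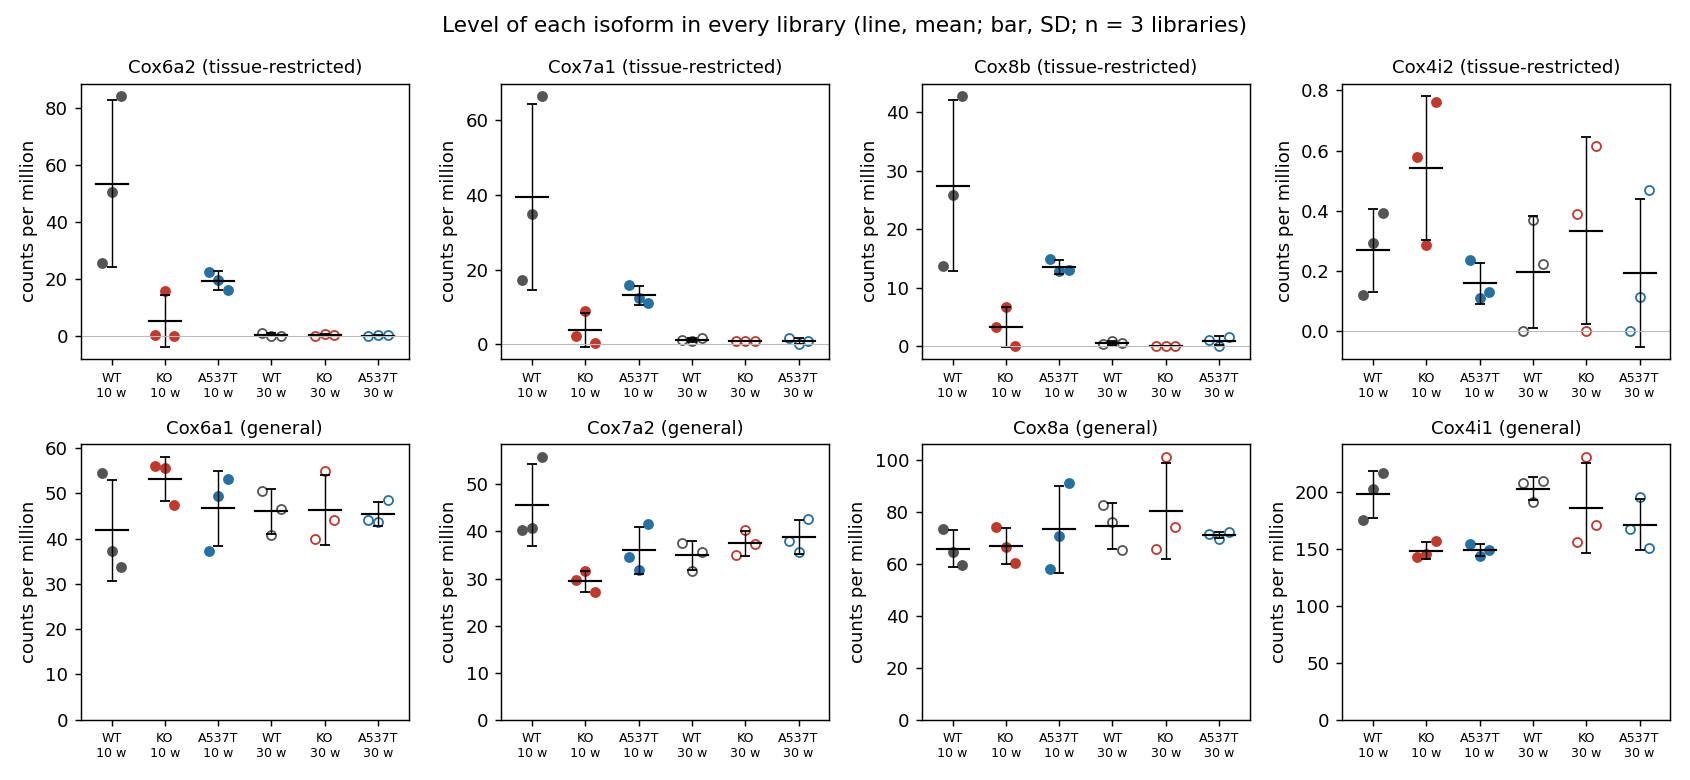
Level of each isoform in CPM (y axis, linear, own scale in each panel) in the 6 groups (x axis), with 1 point per library, a line at the mean and a bar of 1 SD. Cox6a2, Cox7a1 and Cox8b reached 84.1, 66.3 and 42.7 CPM at 10 weeks and did not exceed 1.83 CPM in any library at 30 weeks, while the general isoforms varied at most 2.05-fold over all 18 libraries.

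The muscle forms took a large and variable part of their pairs at 10 weeks. Per kilobase, Cox6a2 made up 28.3, 53.2 and 67.7% of Cox6a2 and Cox6a1 in the WT libraries 10AF, 11AF and 12AF, named here as in the deposited tables. In the same order Cox7a1 made up 39.2, 56.1 and 64.1% of its pair, and Cox8b 22.1, 38 and 52.2%. Library 12AF was highest and 10AF lowest for all 3 pairs. In A537T at 10 weeks the shares were 33.6, 25 and 20.1% for Cox6a2, 41, 36.8 and 28.6% for Cox7a1, and 28.3, 21.8 and 17.9% for Cox8b, within or below the WT range. In KO at 10 weeks, libraries 13AF, 14AF and 15AF gave 0.172, 19.3 and 0% for Cox6a2, 10.5, 29.8 and 2.47% for Cox7a1 and 6.46, 13.5 and 0% for Cox8b. All KO shares were below all WT shares, and 14AF was the highest KO library each time. At 30 weeks no library exceeded 1.63% for Cox6a2, 6.75% for Cox7a1 or 3.36% for Cox8b. Cox4i2 stayed at or below 0.493% of its pair in all 18 libraries.

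**Figure D2:**
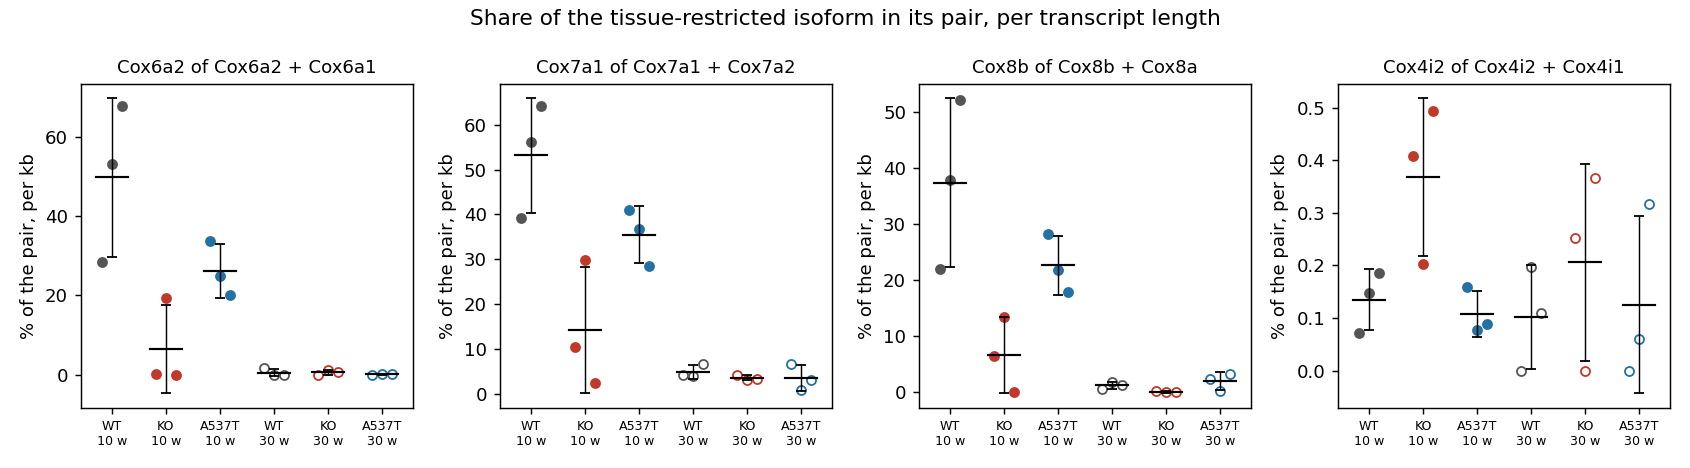
Tissue-restricted isoform as a percentage of its pair, each isoform in CPM per kb of its median coding transcript (y axis, own scale in each panel), in the 6 groups (x axis), with 1 point per library, the mean and 1 SD. At 10 weeks the WT means were 49.7% for Cox6a2, 53.1% for Cox7a1 and 37.4% for Cox8b against 6.49, 14.3 and 6.65% in KO.

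The muscle forms were lower in KO than in WT prostates at 10 weeks. Cox6a2, which sits at the interface of the complex IV dimer, had normalised counts of 205, 431 and 871 in WT and 0.859, 129 and 0 in KO. Every KO library was below every WT library, and 2 of the 3 KO libraries were at or near 0. Its log2 fold change was −6.10 ± 1.75 (SE) with a 95% interval of −10.26 to −1.94 and adjusted p = 0.183 by limma across 15089 genes. Because of the counts near 0 this value depends on how low counts are treated, and DESeq2 on the recovered reads gave −3.54 with adjusted p = 0.424. In these bulk samples fewer cells of a type and less RNA per cell cannot be told apart.

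Cox7a1, the muscle form of a family that also holds the supercomplex factor Cox7a2l, had 139, 296 and 687 normalised counts in WT and 17.2, 72.6 and 3.43 in KO. The groups did not overlap, and the log2 fold change was −4.08 ± 1.04 (95% interval −6.54 to −1.62, limma adjusted p = 0.183). Cox8b, the muscle form of the small subunit 8, had 110, 221 and 442 in WT and 24.9, 55 and 0 in KO. Again the groups did not overlap, with a log2 fold change of −4.29 ± 1.44 (95% interval −7.70 to −0.88, limma adjusted p = 0.199). Cox4i2 had 0.978, 2.5 and 4.08 in WT and 4.3, 2.34 and 5.72 in KO, overlapping counts that were too low to test.

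Of the general isoforms, Cox7a2 and Cox4i1 were also lower in KO at 10 weeks, and by much less. Cox7a2 had 323, 347 and 576 normalised counts in WT and 220, 256 and 203 in KO, without overlap. Its log2 fold change was −0.83 ± 0.24 (95% interval −1.40 to −0.26, limma adjusted p = 0.183), and it was the only member to pass with DESeq2 on recovered reads (−0.87, adjusted p = 0.0499). Cox4i1 had 1405, 1719 and 2234 in WT and 1066, 1179 and 1176 in KO, also without overlap, with a log2 fold change of −0.62 ± 0.18 (95% interval −1.05 to −0.19, limma adjusted p = 0.183). Cox8a had 589, 550 and 618 against 552, 541 and 453, and Cox6a1 had 436, 318 and 349 against 418, 453 and 357. These 2 overlapped between groups, at −0.19 (95% interval −0.49 to 0.11) and 0.16 (−0.23 to 0.55) on the log2 scale.

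In all, 5 of the 7 members tested had an unadjusted p under 0.05 and lower values in KO, against 11.5% of all genes tested, and the same 5 had every KO library below every WT library, against 14.3% of all genes. None passed the adjusted threshold, nor did any other gene (0% called by limma, 2930 genes at an unadjusted p under 0.05, 0 by edgeR, 683 by DESeq2). Single libraries decided these calls. Without WT library 10AF, limma called 2886 genes, among them Cox7a1 (−4.64, adjusted p = 0.0385), Cox7a2 (−0.98, adjusted p = 0.0387) and Cox4i1 (−0.78, adjusted p = 0.0244). Without KO library 14AF it called 185, among them Cox6a2 (−8.29, adjusted p = 0.00648). Without KO library 15AF, where it was at 0, Cox8b was at −2.54. Scaling each library to the same total moved the median log2 fold change of all genes from −0.0061 to 0.20, and the genes at an unadjusted p under 0.05 from 1202 higher and 1728 lower to 1915 higher and 1050 lower. It left Cox7a2 at −0.62 and Cox4i1 at −0.41, while Cox8a turned from −0.19 to 0.02.

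The ratio within a pair, in which the scaling of a library matters only through the 1 added to each count, was lower in KO for the 3 muscle pairs too. The log2 ratio of Cox6a2 to Cox6a1 was 0.22 ± 1.21 (SD, n = 3) in WT and −6.04 ± 3.68 in KO. For Cox7a1 over Cox7a2 it was −0.40 ± 0.75 and −3.65 ± 1.86, and for Cox8b over Cox8a −1.40 ± 0.97 and −5.51 ± 2.93. All 3 ratios were lower in every KO library than in any WT library (two-sided exact permutation p = 0.1 each, the smallest that 3 against 3 libraries allow, adjusted p = 0.32 over 16 ratios). Without 15AF the difference for Cox8b over Cox8a was −2.44 instead of −4.10. Cox4i2 over Cox4i1 went the other way, at −9.07 ± 0.36 in WT and −7.86 ± 0.53 in KO (exact p = 0.1, adjusted p = 0.32), but rests on at most 5.72 normalised counts of Cox4i2 in a library. The 7 pericyte genes listed, of the cell type known for Cox4i2, summed to 198 to 239 CPM in WT and 133 to 146 CPM in KO. Much of this sum was Abcc9 (66, 81 and 125 CPM in WT, 37.3, 45.7 and 31.7 in KO) and Rgs5. Others overlapped, such as Cspg4 (43.5, 21.4 and 10.8 CPM in WT, 39, 30 and 42.6 in KO). Of 5 tested, 4 were lower (median log2 fold change −0.45), and 3 with every library scaled to the same total (median −0.24). The part of pericytes in the level of Cox4i2 was not tested.

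In A537T at 10 weeks the same 3 muscle forms had smaller differences from WT. On the scale of that table, Cox6a2 had 209, 431 and 875 normalised counts in WT and 201, 170 and 125 in A537T, all below WT but next to 10AF. Its log2 fold change was −1.40 ± 0.48 (95% interval −2.54 to −0.26, limma adjusted p = 0.746). Cox7a1 had 141, 295 and 688 against 143, 108 and 86.8 (−1.47 ± 0.53, limma adjusted p = 0.746), and Cox8b 117, 232 and 465 against 134, 111 and 102 (−1.01 ± 0.46, limma adjusted p = 0.746). Both overlapped WT through the low library 10AF, while the 3 A537T libraries lay closer together than the 3 WT libraries.

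Cox4i1 had 1458, 1752 and 2285 normalised counts in WT and 1374, 1252 and 1168 in A537T (−0.51 ± 0.19, limma adjusted p = 0.746). Cox7a2 had 341, 359 and 598 against 309, 277 and 326 (−0.46 ± 0.23, limma adjusted p = 0.749). On normalised counts these 2 general isoforms did not overlap with WT, whereas Cox8a at 0.07 (95% interval −0.29 to 0.43) and Cox6a1 at 0.10 (−0.32 to 0.53) did. In CPM Cox7a2 overlapped too, at 41.5 in A537T library 18AF and 40.3 and 40.8 in WT libraries 10AF and 11AF. Cox4i2 was at 3.2 counts or fewer in every library. Of the 7 members tested, 3 had an unadjusted p under 0.05 with lower values, against 3.67% of all genes. On normalised counts 3 lay below every WT library, Cox7a2 among them, against 6.34%. Scaling to the same total moved the median of all genes from 0.01 to 0.15. No gene passed adjustment (limma 0%, 973 at an unadjusted p under 0.05, edgeR 0, DESeq2 87), and without 10AF limma called 50 genes, no member among them. Library 12AF, the highest in muscle RNA, carried much of these differences, and without it Cox6a2 was at −0.88, Cox7a1 at −0.88, Cox8b at −0.51, Cox7a2 at −0.21 and Cox4i1 at −0.34. The 3 muscle pair ratios differed from WT by −1.5, −1.01 and −1.08 on the log2 scale for Cox6a2, Cox7a1 and Cox8b and overlapped WT (exact p = 0.2 and adjusted p = 0.4 for each).

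**Figure D3:**
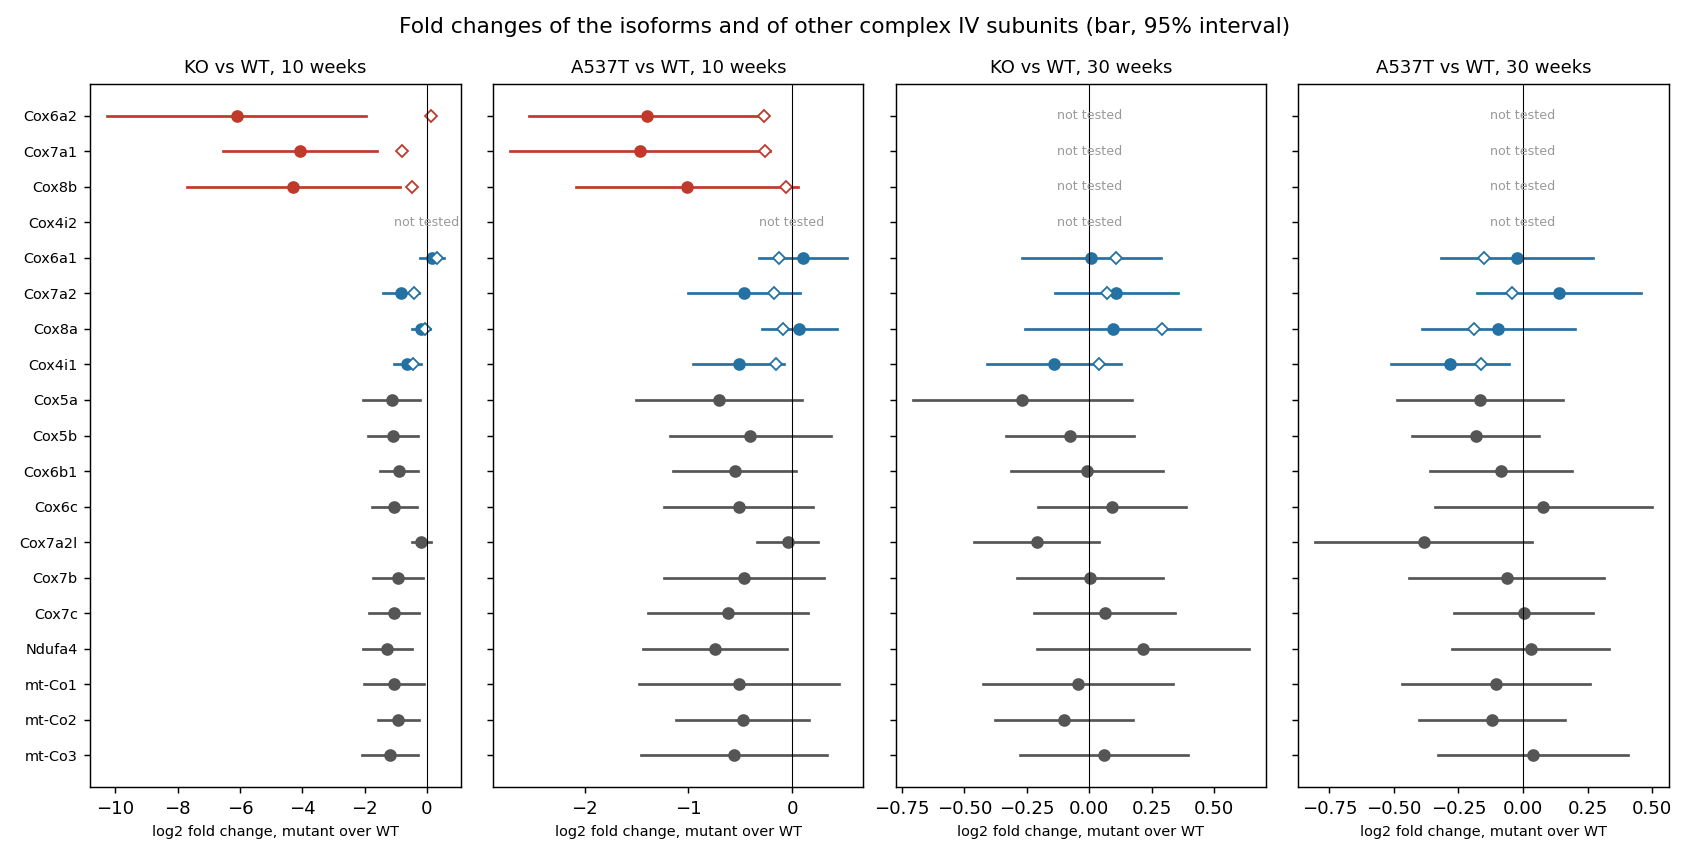
Log2 fold change of mutant over WT (x axis, own range in each panel) of the restricted isoforms (red), general isoforms (blue) and other complex IV subunits (grey) in the 4 comparisons, with bars for the 95% interval from limma and open diamonds for the members' values with a marker score as covariate (skeletal muscle at 10 weeks, seminal vesicle at 30 weeks). With the muscle score, Cox6a2 in KO at 10 weeks moved from −6.10 to 0.13 and Cox7a2 from −0.83 to −0.40.

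The muscle forms followed the other genes of skeletal muscle. A list of 31 skeletal muscle genes without any member, such as the myosin Myh4, the creatine kinase Ckm and the actin Acta1, summed to 41341, 69072 and 133942 CPM in the WT libraries 10AF, 11AF and 12AF, to 688, 21615 and 636 CPM in KO and to 45700, 33861 and 16251 CPM in A537T. All 31 were lower in KO, as were 50.6% of all genes tested, with a median log2 fold change of −7.06 against −0.01 over all genes. No KO library overlapped WT for 30 of the 31, against 14.3% of all genes, and none passed the adjusted threshold. In A537T all 31 were lower too, against 48.5% of all genes, with a median of −1.67, and 8 lay wholly below WT, against 6.34% of all genes. At 30 weeks the sum was 128 to 771 CPM in all 9 libraries. The 6 heart genes listed summed to between 1.29 and 9.26 CPM, and of them the natriuretic peptide genes Nppa and Nppb were at 0 in every library.

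Relative to that sum the muscle forms varied less where muscle RNA was plentiful. Per 10000 CPM of muscle genes there were 6.2, 7.32 and 6.28 CPM of Cox6a2 in WT at 10 weeks, 7.31 in KO library 14AF and 4.93, 5.8 and 9.81 in A537T. Cox7a1 ranged from 3.49 to 6.8 and Cox8b from 3.13 to 7.99 in these 7 libraries, highest in A537T library 18AF in both cases. With the muscle score, the mean log2 level of these genes, as a covariate, the KO fold changes at 10 weeks were 0.13 (95% interval −0.74 to 0.99) for Cox6a2, −0.79 (−2.88 to 1.30) for Cox7a1 and −0.47 (−4.63 to 3.70) for Cox8b, and those of A537T were −0.27, −0.26 and −0.05 (limma, adjusted p from 0.967 to 0.9997 over these 6). Of the general isoforms in A537T at 10 weeks, Cox4i1 moved from −0.51 to −0.15 and Cox7a2 from −0.46 to −0.18 with this score. In KO at 10 weeks Cox7a2 moved from −0.83 to −0.40. Cox4i1 in KO, at −0.62, stayed between −0.65 and −0.41 under every alternative that kept all libraries, this score among them. Genotype and muscle score differ together in these 6-library tables, so the intervals are wide and the part of each was not tested.

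**Figure D4:**
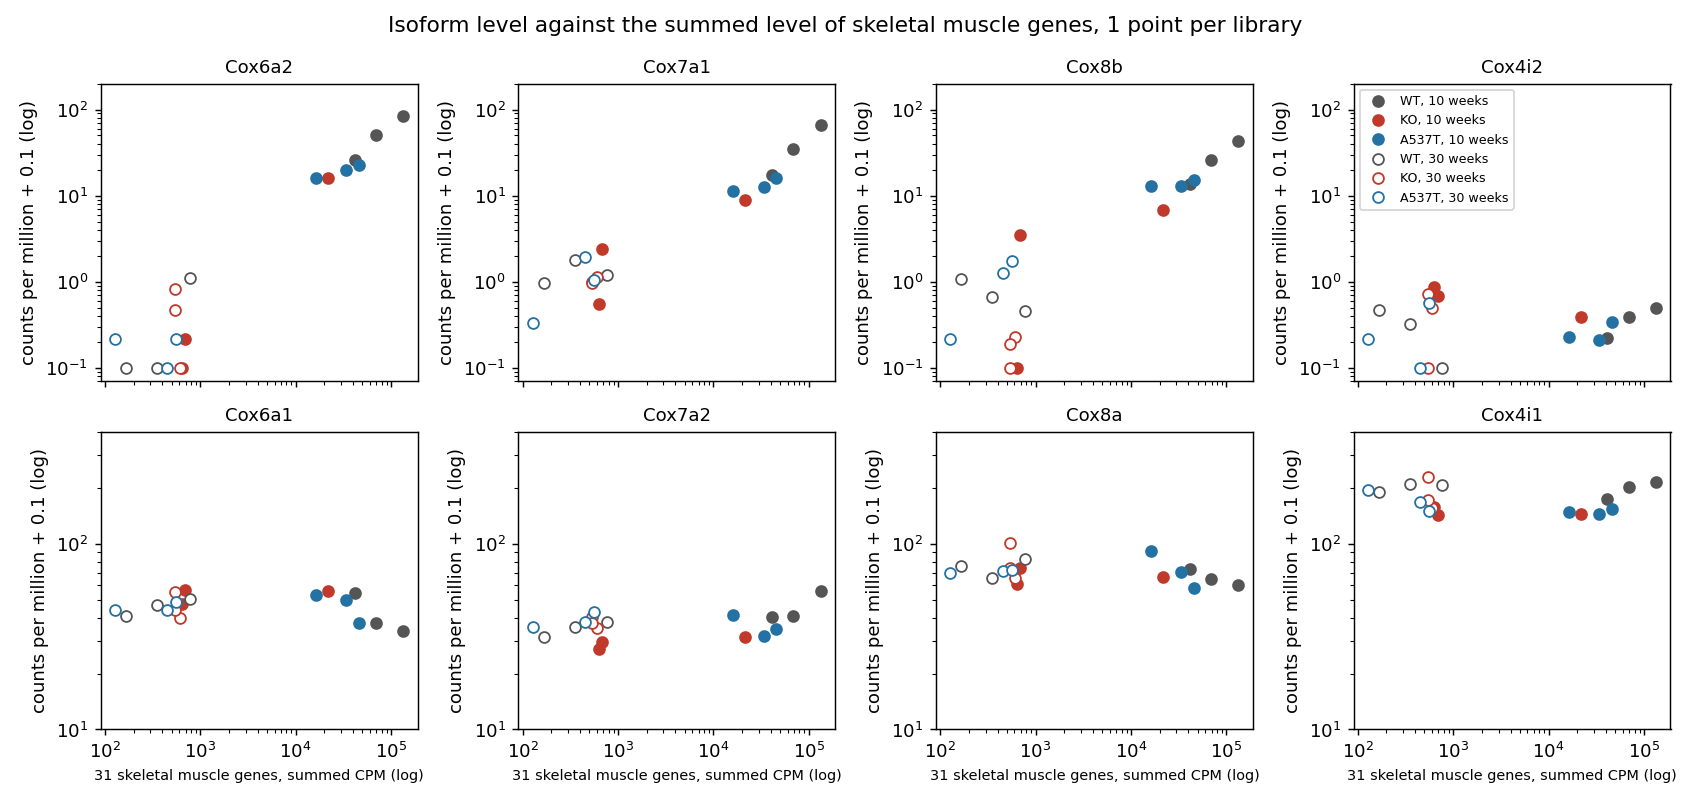
CPM + 0.1 of each isoform (y axis, log) against the summed CPM of 31 skeletal muscle genes (x axis, log) in 18 libraries, filled at 10 weeks and open at 30 weeks. Among the 7 libraries with 16251 to 133942 CPM of muscle genes, Cox6a2, Cox7a1 and Cox8b are highest in the 2 furthest right, 11AF and 12AF. Further left the order is not strict, with Cox8b at 13 CPM in 18AF (16251 CPM of muscle genes) and 6.76 CPM in 14AF (21615). The general isoforms stay within a 2.05-fold range at every muscle level.

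Across the 9 libraries at 10 weeks the muscle forms followed one another closely, with Pearson r of log2(CPM + 1) of 0.97 for Cox6a2 and Cox7a1, 0.93 for Cox6a2 and Cox8b and 0.98 for Cox7a1 and Cox8b. These 9 points share the same muscle-rich and muscle-poor libraries, and r is given as a description. Among 14808 genes the 3 most like Cox6a2 were Klhl41, Eno3 and Sbk2 (r = 0.999 each), of which Klhl41 is a sarcomere regulator and Eno3 the muscle enolase. Among those most like Cox7a1 were Tcea3 (0.995) and Prkaa2 (0.994), and those most like Cox8b were Opa3, Hspb2 and Capn3 (0.986 to 0.995), Capn3 being the muscle calpain. Over all 18 libraries the genes most like Cox7a2 were the complex IV genes Cox6c (r = 0.944), Ndufa4 (0.894) and Cox7c (0.888). Within 1 age they were other genes, Lynx1, Uaca and Mrpl15 at 10 weeks (0.978 to 0.982) and Bbs1, Wnt7b and Tgds at 30 weeks (0.940 to 0.971). Cox7a2 itself followed Cox7a1 at 10 weeks (r = 0.87), whereas Cox6a1 and Cox8a did not follow their partners (−0.54 and 0.03).

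KO library 13AF did not hold the muscle forms in the usual proportion. Cox6a2 was at 0.116 CPM there, 1 read, while Cox7a1 was at 2.31 and Cox8b at 3.35 CPM, so that Cox6a2 over Cox8b was 0.0345 compared with 1.23 to 2.34 in the 7 libraries rich in muscle RNA. The brown adipocyte genes Ucp1, the uncoupling protein of heat production, and Cidea were at 11.9 and 8.2 CPM in 13AF. In KO library 15AF, with a like sum of the listed muscle genes, Ucp1 was at 0, Cidea at 0.304, Cox8b at 0 and Cox7a1 at 0.457 CPM. Much of that sum was Ttn and Acta1, at 252 and 209 CPM in 15AF and 303 and 189 CPM in 13AF. Myh4 was at 0 CPM in 15AF and 3.35 CPM in 13AF. WT library 10AF also held Ucp1 (10.7 CPM), and no other library at 10 weeks exceeded 0.386 CPM. The 6 brown adipocyte genes listed summed to 7.29 to 36.9 CPM in WT and 39.4 to 78.6 CPM in KO. Of them, Elovl3 was at 0.231 CPM or less in all libraries, and Prdm16 was high in all 3 KO libraries (51.2, 34.4 and 53 CPM), where Ucp1 was at 11.9, 0.144 and 0 CPM. Their part in the levels of Cox8b and Cox7a1 was not tested.

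The difference within the pairs was not restricted to complex IV. In 10 other pairs of muscle and general forms, among them the adenine nucleotide carriers Slc25a4 and Slc25a5 and the enolases Eno3 and Eno1, the log2 ratio was lower in KO at 10 weeks for 10 of 10 (median −4.24, from −8.72 for Atp2a1 over Atp2a2 to −2.14 for Slc25a4 over Slc25a5), and 9 did not overlap WT. In A537T at 10 weeks all 10 were lower too (median −1.46), and 6 did not overlap. At 30 weeks the medians were −0.14 in KO and −0.43 in A537T, with 6 and 7 of 10 lower. Of the muscle forms in these pairs, Eno3, Pygm, Ckmt2 and Atp2a1 are also in the skeletal muscle list, so the pairs are not independent of it. Taken as single genes at 10 weeks, 10 of 10 muscle forms lay wholly below WT in KO, against 14.3% of all genes. In A537T 3 of 10 did, against 6.34%.

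The other subunits of complex IV listed were lower at 10 weeks as well, by about as much as Cox7a2. All 8 nuclear subunits tested were lower in KO (median log2 fold change −1.06, against −0.01 over all genes tested), from −1.27 ± 0.33 for Ndufa4 to −0.18 ± 0.13 for the supercomplex factor Cox7a2l. Of these, 7 had an unadjusted p under 0.05 (11.5% of all genes, in this direction), 7 lay wholly below WT (14.3% of all genes), and none passed adjustment. With every library scaled to the same total, 7 of 8 were lower, with a median of −0.84. The core subunits mt-Co1, mt-Co2 and mt-Co3 were at −1.06 ± 0.40, −0.91 ± 0.27 and −1.18 ± 0.38 (limma, adjusted p from 0.184 to 0.233). Of 23 assembly factors 20 were lower (median −0.39), led by Higd1a at −1.14 ± 0.33, and 6 had lower values at an unadjusted p under 0.05, against the same 11.5%. With the same total 17 of 23 were lower (median −0.18). At 30 weeks the 8 nuclear subunits had medians of −0.0033 in KO (4 of 8 lower, against 50.9% of all genes) and −0.08 in A537T (5 of 8, against 50.7%). In A537T at 10 weeks all 8 nuclear subunits were lower (median −0.53), 1 of them, Ndufa4, with an unadjusted p under 0.05 (3.67% of all genes, in this direction), and 19 of 23 assembly factors (median −0.25). With the same total 7 of 8 and 18 of 23 were lower. Cox6a1 and Cox8a, with intervals spanning 0 in both lines, thus differed less from WT than most other subunits, though the difference between genes was not tested. Within WT at 10 weeks the 11 nuclear subunits listed summed to 591, 690 and 971 CPM in 10AF, 11AF and 12AF. The core subunits summed to 16685, 22074 and 27680 CPM there, also in the order of the muscle genes. In A537T libraries 16AF, 17AF and 18AF the nuclear sums were 536, 566 and 638 CPM, the reverse of the muscle genes. The part of muscle RNA in these differences was not tested.

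At 30 weeks the muscle forms were low in all groups, with at most 16 reads in a library, where 3 reads correspond to 0.267 to 0.457 CPM. Cox6a2 was at 0.996, 0 and 0 CPM in WT, 0, 0.713 and 0.369 in KO and 0, 0.114 and 0.117 in A537T. Cox7a1 was at 1.09, 0.862 and 1.69 CPM in WT, 1.03, 0.891 and 0.86 in KO and 1.83, 0.228 and 0.939 in A537T, overlapping throughout. Neither gene reached the mean count needed for the test in either comparison.

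Cox8b was the exception in KO at 30 weeks, with 4, 8 and 5 reads in WT and 1, 1 and 0 in KO. The KO libraries were all below the WT libraries, with a ratio of summed reads of 0.122 (95% interval 0.0137 to 0.513, counting error only). The log2 ratio of Cox8b to Cox8a was −6.72 ± 0.67 in WT and −8.83 ± 0.67 in KO (exact p = 0.1, adjusted p = 0.32). At these counts the difference of −2.11 depends on the number added before the logarithm, and was −2.60 with 0.5 added and −0.74 with 8 added. Without the low-count filter limma gave a log2 fold change of −2.02 ± 0.58 (adjusted p = 0.441). In A537T Cox8b was at 1.15, 0.114 and 1.64 CPM, around the WT values of 0.362, 0.985 and 0.562. The 6 brown adipocyte genes summed to 51.3, 18.7 and 30.8 CPM in KO and 8.88 to 11.1 CPM in WT. Prdm16 alone was at 47.8, 9.35 and 27 CPM in KO and 1.63, 1.72 and 1.46 CPM in WT. In A537T it was at 50, 4.79 and 45.9 CPM. The libraries highest in it, 4AF, 6AF, 7AF and 9AF, were also those with seminal vesicle RNA. Of the same list Ucp1 was at 0 in all 3 KO libraries and at 0, 2.09 and 1.46 CPM in WT. In A537T Ucp1 was at 3.66, 0.114 and 3.87 CPM. Cidea was at 0.388, 0 and 0 CPM in KO, 0, 1.85 and 0.787 in WT and 2.29, 0 and 3.76 in A537T. Dio2 overlapped between KO and WT. Skeletal muscle genes summed to 540 to 606 CPM in KO and 167 to 771 CPM in WT at this age, so the sums overlapped. Their make-up varied, with Ttn at 353, 93.4 and 248 CPM in KO and 306, 33 and 100 CPM in WT. Myh4 was at 0, 77.7 and 13.4 CPM in KO and 41.6, 0.246 and 12.2 CPM in WT. The part of muscle and of brown adipocyte RNA was not tested.

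The general isoforms differed little at 30 weeks. In KO the log2 fold changes were −0.14 ± 0.11 for Cox4i1, 0.11 ± 0.10 for Cox7a2, 0.09 ± 0.15 for Cox8a and 0.01 ± 0.12 for Cox6a1, and 0 of 4 had lower values at an unadjusted p under 0.05 (5.41% of all genes) or lay wholly below WT (8.41%). In A537T Cox4i1 had 1845, 1788 and 1852 normalised counts in WT and 1467, 1647 and 1406 in A537T. These counts did not overlap, but in CPM A537T library 8AF (195) was above WT library 2AF (191). The log2 fold change of Cox4i1 was −0.28 ± 0.10 (95% interval −0.51 to −0.05, limma adjusted p = 0.31). Cox4i1 was 1 of 4 members with an unadjusted p under 0.05 and lower values, against 6.28% of all genes. On normalised counts it was also 1 of 4 wholly below WT, against 9.40%. The other 3 were between −0.10 and 0.14, with 95% intervals within −0.39 and 0.46. Adding the score of seminal vesicle genes as a covariate left Cox4i1 in A537T at −0.16 (95% interval −0.41 to 0.09). No gene was called by limma in either comparison (0%; 1616 and 2016 at an unadjusted p under 0.05), nor by edgeR. DESeq2 called 275 and 458, and limma called 944 without KO library 5AF and 1224 without A537T library 8AF, no member among them.

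Whether the difference from WT changed with age was tested by permuting genotype within each age (400 arrangements, 24 tests). For Cox7a2 in KO the log2 fold change went from −0.83 at 10 weeks to 0.11 at 30 weeks, a difference of 0.94 (exact p = 0.015, adjusted p = 0.3). In A537T it went from −0.46 to 0.14, a difference of 0.60 (exact p = 0.025, adjusted p = 0.3) that was 0.34 without WT library 12AF. For Cox6a2 in KO the difference was 6.65 (exact p = 0.08, adjusted p = 0.408) and for Cox7a1 3.78 (exact p = 0.085, adjusted p = 0.408), while for Cox8b, with the low counts at 30 weeks, it was 2.27 (exact p = 0.495, adjusted p = 0.701), 0.52 without 15AF and 3.43 without 14AF. No member or ratio passed adjustment in either line.

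The libraries differed in markers of other tissues as well. The 8 prostate epithelium genes listed were all detected in every library, with sums of 4445 to 46700 CPM. The seminal vesicles had been removed at dissection. Seminal vesicle genes summed to 65538 to 102936 CPM in the 3 KO libraries at 10 weeks and to 46367, 17634 and 8.08 CPM in WT libraries 10AF, 11AF and 12AF, the reverse of the order of the muscle genes. In A537T libraries 16AF, 17AF and 18AF they summed to 1914, 1356 and 374 CPM, in the same order as the muscle genes there. The seminal vesicle genes at 30 weeks summed to 63218 CPM or more in KO libraries 4AF and 6AF and A537T libraries 7AF and 9AF and to 3.35 CPM or less elsewhere. Their part in the differences of the members was not tested beyond the covariate given above. Of 7 smooth muscle genes 7 were higher in both mutant lines at 10 weeks (median log2 fold change 0.94 in KO and 0.96 in A537T), and of 7 adipocyte genes 7 were lower in KO (median −1.05) and 7 higher in A537T (median 0.52). Elac2 itself had 124, 142 and 166 normalised counts in WT and 119, 111 and 115 in KO at 10 weeks (−0.31 ± 0.16, limma, adjusted p = 0.325). At 30 weeks it had 150, 153 and 194 in WT and 98.4, 151 and 122 in KO. In A537T it had 173, 165 and 158 at 10 weeks (WT 126, 143 and 167) and 121, 189 and 114 at 30 weeks (WT 147, 150 and 191). Gene-level counts outside the deleted exon and from cells without Cre do not check the deletion. Libraries held 6569642 to 11225281 recovered reads.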

How the data were processed

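Trim Galore 0.4.1 trimming, STAR 2.7.3a alignment to GRCm38.p6 (mitochondrial copies in the nuclear genome masked), strand-aware Salmon quantification on GENCODE M24 and tximport were the authors' steps. Their deposited signal values are gene-level counts after division by the size factor of DESeq2 1.26, in 4 tables of 6 libraries. A table's columns were assigned to groups, not to replicates, because its row means equal the mean counts of 1 deposited comparison and because the WT columns occur in both tables of their age. The deposited comparisons hold the authors' own fold changes and s-values, which were not used.

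The main test was limma 3.58.1 (R 4.3.3, mean trend, Benjamini-Hochberg threshold 0.05) on log2(normalised count + 1) of genes averaging at least 10, a scale that understates fold changes of low genes. Scores used as covariates are the mean of that log2 value over the listed genes averaging at least 10. Reads recovered from the signal (at least 99.99% of values within 0.1 of a whole number) went into DESeq2 1.42.0 and edgeR 4.0.16 as alternatives. For a WT library they differ between its 2 tables at 53.6 to 64.1% of genes. CPM is the normalised count over the column total, and WT values come from the KO table. Levels set across tables carry no test. Lengths are medians over coding transcripts in GENCODE M21, which holds 54450 of the 55469 gene IDs exactly and 55107 when versions are ignored. Pair ratios, log2 with 1 added to each isoform, had two-sided exact permutation tests. Scripts were tested on simulated data.

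Members, lists and tests were chosen with earlier results of these data known. The text names members, Elac2, listed genes and, for some members, genes among the 3 with the highest Pearson r to it (restricted isoforms within an age, general isoforms over 18 libraries, and Cox7a2 also within an age). For Cox7a1 1 of them is not reported here. Each library came from its own mouse per the study's methods. Intervals on reads cover counting error only. Other pseudocounts, filters, scalings, tools, covariates and leaving out each library were the alternatives.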

Additional observations from a re-analysis of the deposited data

How the results depend on the processing

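No paired analysis was possible because the table columns carry no replicate number. The 4 comparisons had 0 calls with limma and 0 with edgeR under the chosen settings. In KO at 10 weeks calls numbered 1 without the mean trend, 683 with DESeq2 and 0 to 2886 with 1 library left out (most without 10AF, then 185 without 14AF). In A537T at 10 weeks they numbered 2 without a filter, 2 without the trend, 87 with DESeq2 and 0 to 50 with 1 library left out (most without 10AF). In KO at 30 weeks they were 275 with DESeq2 and 0 to 944 (most without 5AF), and in A537T at 30 weeks 458 with DESeq2, 3 with the seminal vesicle score and 0 to 1224 (most without 8AF). Of 308 values of members under alternatives, 288 kept direction and call, 5 passed the threshold and 15 turned sign. At 10 weeks the muscle score turned Cox6a2 in KO to 0.13, and Cox6a1 and Cox8a in A537T to −0.12 and −0.086, and scaling to the same total turned Cox8a in KO to 0.023. At 30 weeks the seminal vesicle score turned Cox4i1 in KO to 0.038 and Cox7a2 in A537T to −0.042, and the same-total scaling turned Cox6a1 in A537T to 0.0013. With 1 library left out, the log2 fold change of Cox8a in A537T at 10 weeks ranged from −0.046 to 0.19, and at 30 weeks that of Cox6a1 in KO from −0.054 to 0.074, of Cox8a in KO from −0.017 to 0.19 and of Cox6a1 in A537T from −0.11 to 0.039. Of 104 values of pair ratios 6 turned sign, all on leaving out a library at 30 weeks, where the ratio difference ranged from −0.0044 to 1.58 for Cox6a2 over Cox6a1 in KO, from −0.066 to 1.49 for Cox4i2 over Cox4i1 in KO and from −0.30 to 1.13 for Cox8b over Cox8a in A537T. Of 280 age differences 8 turned sign, with ranges of −0.79 to 0.67 for Cox4i2 in KO, −1.27 to 0.29 for its pair ratio in KO and −0.26 to 0.94 for the ratio of Cox7a1 to Cox7a2 in A537T. With 8 added before the logarithm in place of 1, the ratio of Cox8b to Cox8a in KO at 30 weeks differed by −0.74 in place of −2.11. Scaling to the same total moved the genes at an unadjusted p under 0.05 from 418 higher and 555 lower to 610 and 393 in A537T at 10 weeks, from 819 and 797 to 825 and 519 in KO at 30 weeks and from 1087 and 929 to 1233 and 594 in A537T at 30 weeks. The cause was not tested. Leaving out a library leaves 2 against 3. At 30 weeks the restricted isoforms had few reads, and the 3 pair ratios whose restricted isoform averaged 3 or fewer normalised counts in both groups are not given.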
